A study of Mus musculus with 12 samples.

Results

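The genes that encode the proteins of the cytosolic ribosome were examined in liver, in animals that received Rspo2 by gene transfer and in controls. The members were all protein-coding genes of the deposited table whose symbol is Rpl or Rps followed by a number, with its usual suffixes. Rplp0, Rplp1, Rplp2 and Rpsa were added by name. This name rule used no measured values, but it was set with earlier results of these data known. The members came to 83 of 54532 genes. Of these, 80 were tested among the 13447 genes whose mean reached 0.5 FPKM (fragments per kilobase of gene length, scaled for library size). All samples were livers of Apoe knockout mice, a strain without apolipoprotein E that accumulates cholesterol in the blood. One group of 6 had received an Rspo2-AAV (an adeno-associated virus carrying Rspo2, numbers 1, 2, 4, 5, 6 and 7). The other 6 had received a control AAV carrying Gfp (numbers 1 to 6). Age, sex, vector dose, time after injection and the promoter of the vectors are not given in the labels. Whether each sample was a separate animal is not said in the labels, and a p-value here rests on the spread between samples, which may be technical. The samples are bulk liver, so fewer cells of a type and less RNA per cell cannot be told apart.

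A cytosolic ribosome has a small subunit, which reads the messenger RNA, and a large subunit, which joins the amino acids. Each subunit holds ribosomal RNA and a set of proteins made in nearly equal amounts, which are assembled mainly in the nucleolus. In mammals most of these proteins come from messenger RNAs that begin with a C followed by a run of pyrimidines, the 5′ terminal oligopyrimidine (TOP) motif, through which the kinase mTOR and the protein Larp1 control their translation. Each functional gene has many processed pseudogenes, so that reads of one protein's messenger RNA can match several places in the genome. Growing or regenerating liver makes many ribosomes, and R-spondin 2, the secreted product of Rspo2, strengthens Wnt signalling, one of the pathways that govern liver growth and zonation.

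The TOP motif is shown first because it is the sequence feature that defines the family's regulation. RefSeq promoter entries (GRCm38.p6) matched 63 of the 83 members. A C at the annotated start followed by at least 4 C or T stood at a listed start of 13 of the 63 (20.6%), against 813 of all 27025 genes in the table (3.01%). The windows below hold the 15 bases before and the 15 bases from the annotated start, with the C and its pyrimidine run in capitals. The first 6 carry the motif and are described below by their levels, and Rplp0 and Rps28 stand beside them as members whose annotated start lacks it.
Rps6 (chr4:86857353-86857382, minus strand): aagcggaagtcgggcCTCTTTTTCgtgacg
Rps18 (chr17:33955651-33955680, minus strand): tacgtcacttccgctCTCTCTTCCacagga
Rpl14 (chr9:120571502-120571531, plus strand): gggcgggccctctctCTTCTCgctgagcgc
Rplp2 (chr7:141447636-141447665, plus strand): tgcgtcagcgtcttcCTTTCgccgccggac
Rpl38 (chr11:114668565-114668594, plus strand): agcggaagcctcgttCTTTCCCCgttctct
Rps27 (chr3:90213634-90213663, minus strand): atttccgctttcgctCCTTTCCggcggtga
Rplp0 (chr5:115559452-115559481, plus strand): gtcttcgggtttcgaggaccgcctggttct
Rps28 (chr17:33824548-33824577, minus strand): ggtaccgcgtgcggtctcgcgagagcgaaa

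Annotated starts can lie some bases from the true start, and a run of at least 7 C or T anywhere between 20 bases before and 30 bases after the start was held by 42 of the 63 members (66.7%), against 31.95% of all genes. The letters CGGAAG, the core that ETS factors bind, were found on either strand of the promoter (250 bases before to 50 after the start) in 42 of 63 members (66.7%) and in 18.8% of all genes. AAGATGGC, the core for YY1, was in 6 of 63 members (9.52%) and 3.19% of all genes. CACGTG, the E-box read by Myc proteins, was in 6 of 63 members (9.52%) and 8.09% of all genes. CTTTGAT, a core for the TCF factors of Wnt signalling, was in 0 of 63 members and in 4.29% of all genes, which says only that these letters are not in those windows.

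The libraries were first compared as wholes. They held 14295644 to 22195576 recovered reads. Rspo2 itself was at 122, 49.9, 386, 573, 461 and 265 FPKM in Rspo2-AAV 1, 2, 4, 5, 6 and 7, and had 0 reads in all 6 controls (exact two-sided permutation test over 924 splits, p = 0.00216, the smallest it can give). Xist was at 28.0 FPKM in Rspo2-AAV 1, 5.57 in Rspo2-AAV 2 and 42.0 in control 3, and under 1 FPKM in the other libraries. Scd1, a gene picked once its values had been seen, separated libraries numbered 4 to 7 (2457 to 3662 FPKM) from those numbered 1 to 3 (331 to 541 FPKM) in both groups, and the labels name no batch. Pancreatic acinar genes took 8.36% of the reads of Rspo2-AAV 4 and 0.749% of those of Rspo2-AAV 5. Mitochondrially encoded genes took 10.5% of the reads of Rspo2-AAV 2 and 3.53% to 5.89% elsewhere. The hepatocyte markers were abundant in every library, with a summed 32351 to 71560.0 FPKM in Rspo2-AAV libraries and 38920.1 to 63762 FPKM in controls.

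Ribosomal protein messenger RNAs made up a small part of each library, with the largest shares in 1 library of each group. They took 1.87%, 2.34%, 1.79%, 1.48%, 1.57% and 1.37% of the reads in Rspo2-AAV 1, 2, 4, 5, 6 and 7. In controls 1 to 6 the shares were 2.09%, 1.56%, 1.28%, 1.17%, 1.17% and 1.10%. Rspo2-AAV 2 and control 1 were the highest of their groups, and the groups overlapped: control 1 lay above 5 of the 6 Rspo2-AAV libraries and control 2 above Rspo2-AAV 5 and 7. The members moved together across libraries. Rspo2-AAV 2 was the highest of all 12 libraries for 61 of the 80 tested members and control 1 for 16, while control 6 was the lowest for 65. The median deviation of the 80 members from their 12-library means was 0.93 on the log2 scale in Rspo2-AAV 2 and 0.26 in Rspo2-AAV 4, against 0.58 in control 1 and -0.55 in control 6. Within the same libraries other genes of short deposited length also stood high. The 2663 other genes of the shortest length quintile deviated by a median of 0.30 in Rspo2-AAV 2 and 0.22 in control 1, and by -0.14 to 0.02 in the remaining libraries. The longest quintile was at -0.21 in both Rspo2-AAV 2 and control 1, and between -0.02 and 0.10 elsewhere. Members are short, with a median deposited gene length of 1775.5 bases against 3612 for all tested genes. Of the 80 tested members, 29 lay in the shortest quintile, 35 in the second, 12 in the third and 4 in the fourth. The part of these library differences in the results was not tested, but the members' differences and calls were also computed without Rspo2-AAV 2 and control 1, and with the length trend of each library removed.

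**Figure D1:**
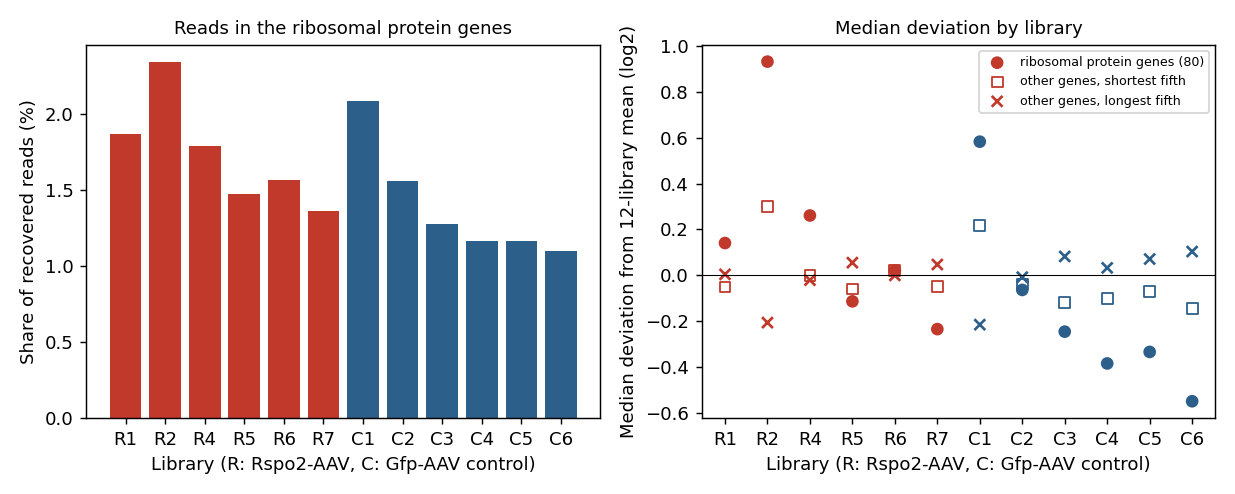
Share of recovered reads in the 83 ribosomal protein genes (left, percent) and median log2 deviation from the 12-library mean (right) for each Rspo2-AAV (R) and control (C) library. Filled points are the 80 tested ribosomal protein genes, open squares the shortest and crosses the longest length quintile of other genes; R2 and C1 stand highest, at 0.93 and 0.58.

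**Figure D2:**
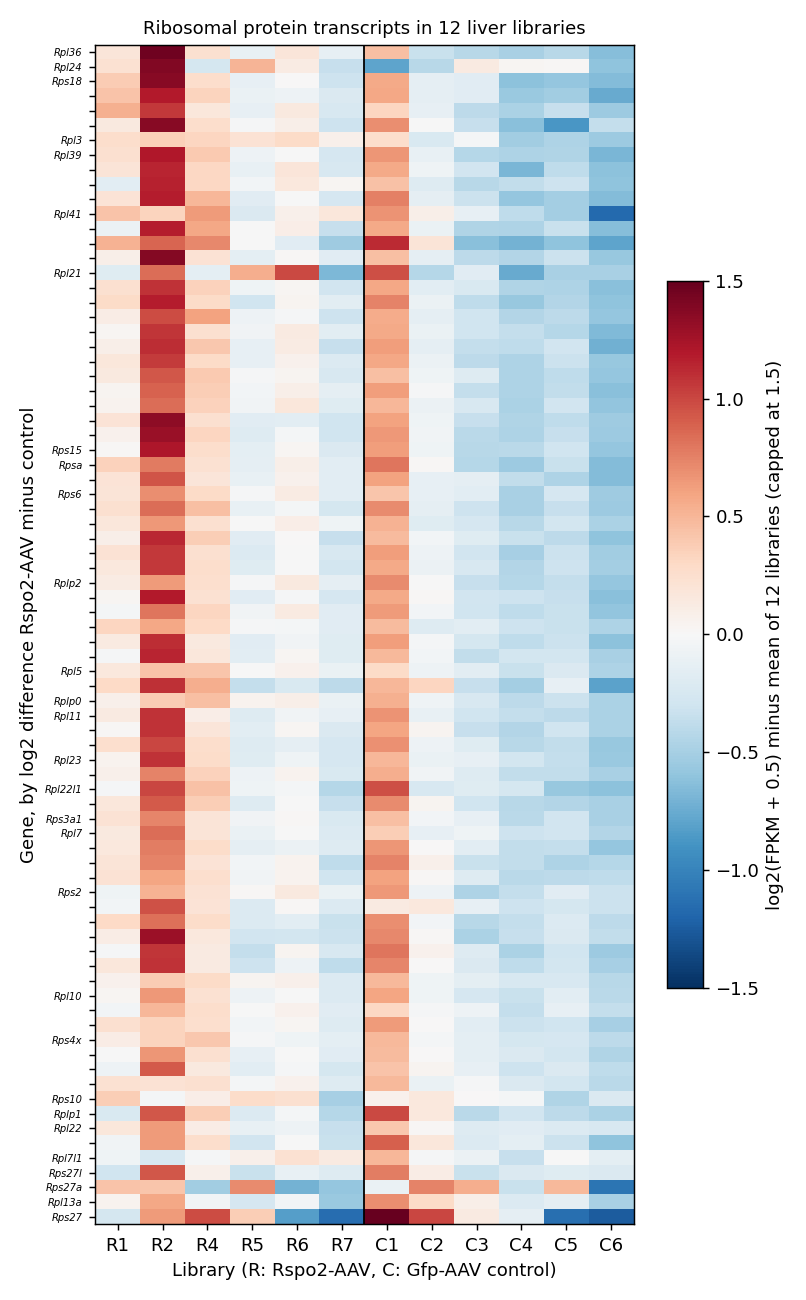
Level of each of the 80 tested ribosomal protein genes in each library, as log2(FPKM + 0.5) minus the mean of the 12 libraries, with genes ordered by the Rspo2-AAV minus control difference and the genes of the naming rule labelled. Nearly whole columns share a colour: 78 members lie above their mean in R2 and in C1, and 0 do in C6.

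No ribosomal protein gene passed the test between Rspo2-AAV and control livers, although most had a higher mean in Rspo2-AAV livers. With limma on log2(FPKM + 0.5), 0 of 80 members were called higher and 0 lower at a Benjamini-Hochberg adjusted p under 0.05, where 2.55% of all tested genes were called higher and 2.65% lower. The smallest adjusted p of a member was 0.0598, for Rpl3. By limma-voom on the recovered reads 0 members were called, where 2.39% of all genes were called higher. At an unadjusted p under 0.05, 4 members were higher (Rpl3, Rpl14, Rpl36 and Rpl5) and 0 lower by limma, where 10.3% and 11.2% of all genes were, and limma-voom gave the same 4 and Rpl27. Rpl14 and Rpl27 are named after their values were seen. These unadjusted counts depended on the scaling and on which libraries were used. With values scaled to TPM (transcript shares of each library), 22 of 80 members were higher at an unadjusted p under 0.05, where 8.07% of all genes were. This scaling divides by the summed FPKM, of which 1 gene, Gm23935, made up 5.59% in control 6 and 26.3% in control 4. Gm23935 is named after its values were seen, and its part in the counts was not tested. With TPM over protein-coding genes of at least 200 bases the count was 39, where 9.19% of all genes were, and with TPM without acinar and mitochondrial genes it was 46, where 11.3% were. Under these scalings, too, 0 members were called at an adjusted p under 0.05. Without control 1 the unadjusted count by limma was 55, where 1677 of 13447 tested genes were higher. Without Rspo2-AAV 2 it was 1, where 1511 were, and without both it was 55, where 1841 were. With the length trend of each library removed it was 16, where 1522 were. With a term for the number set (1 to 3 or 4 to 7) it was 44, where 1577 were. Among numbers 4 to 7 alone it was 64, where 2145 were.

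Differences on the log2(FPKM + 0.5) scale were positive for 77 of 80 members and for 50.4% of all tested genes. Their median was 0.33, with quartiles of 0.23 and 0.42 and a range from -0.08 to 0.61, against a median of 0.0025 for all tested genes. The median was 0.17 without Rspo2-AAV 2 (73 of 80 positive), 0.48 without control 1, and 0.32 without both. With the length trend of each library removed it was 0.32, with 75 of 80 positive. Without the 3 libraries with Xist (Rspo2-AAV 1 and 2 and control 3) it was 0.13, with 69 of 80 positive. There limma called 0 members, where 807 of 13447 tested genes were called higher and 908 lower. At an unadjusted p under 0.05, 1 member was higher and 0 lower, where 1785 of all tested genes were higher and 1930 lower. The proteins of both subunits lay alike: 47 of 48 large-subunit genes and 30 of 32 small-subunit genes had a positive difference, with a median of 0.33 in each. No member's groups were free of overlap over the 12 libraries (0 of 80), where 1.62% of all tested genes had every Rspo2-AAV library above every control. Members do not vary independently of one another, as the library deviations above show, so the count of positive differences is a description of these libraries.

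**Figure D3:**
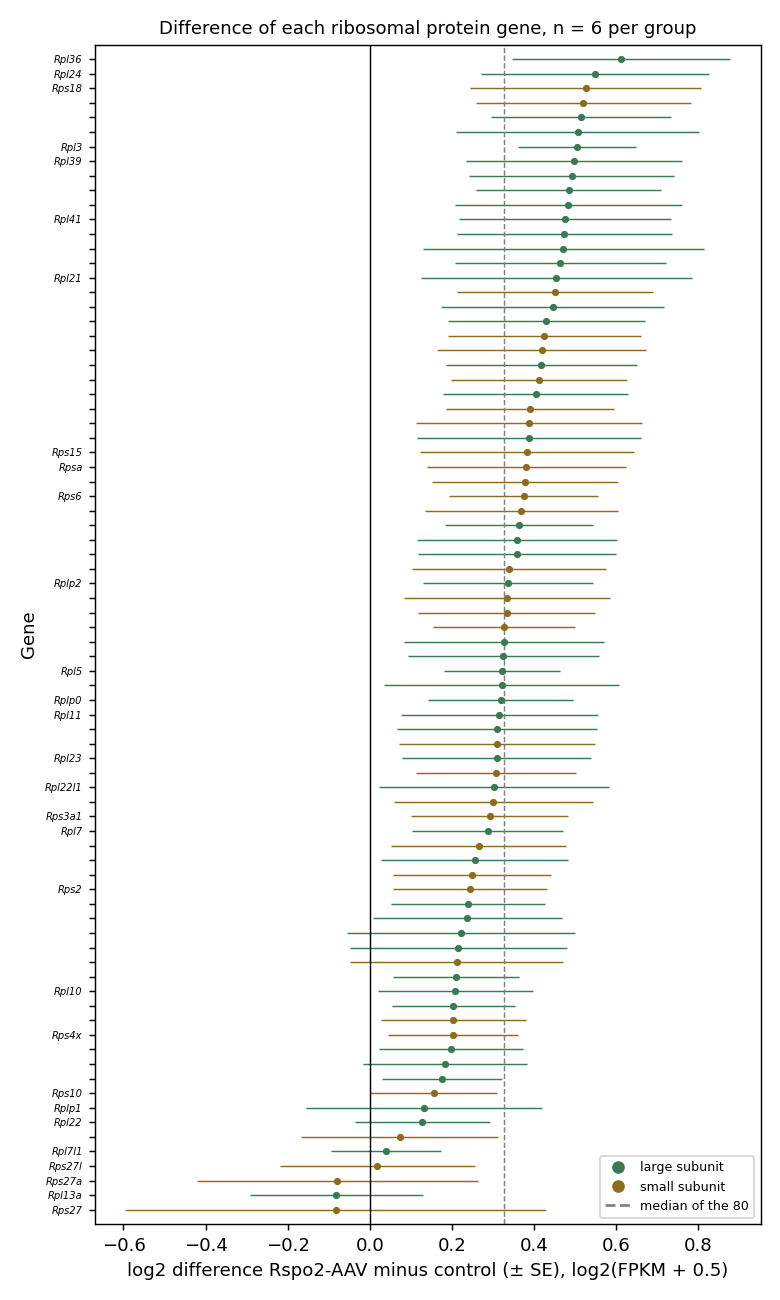
Log2 difference of each of the 80 tested ribosomal protein genes (points, Rspo2-AAV minus control, on log2(FPKM + 0.5)) with its standard error (bars), 6 libraries a group, with the genes of the naming rule labelled. All but Rps27a, Rpl13a and Rps27 lie right of 0, most bars are wide, and the dashed line marks the median of 0.33.

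Rpl3, a core large-subunit protein close to the site of peptide bond formation, had the smallest p of the family. Rpl3 (ENSMUSG00000060036, chr15:80077791-80091868, minus strand, GRCm38) was at 112, 119.9, 117, 109, 115 and 99.1 FPKM in Rspo2-AAV 1, 2, 4, 5, 6 and 7. The controls 1 to 6 had 113, 80.3, 91.9, 65.3, 67.9 and 64.0 FPKM. All Rspo2-AAV libraries lay above controls 2 to 6, and control 1 lay among them. The difference was 0.51 ± 0.14 (log2, SE; limma adjusted p = 0.0598). Without control 1 it was 0.61 ± 0.11 with an adjusted p of 0.0127, and Rpl3 was then the 1 member called, where 2.77% of all genes were called higher. Without control 3 Rpl3 was again the 1 member called, with an adjusted p of 0.0474, where 3.13% of all genes were called higher. With the length trend of each library removed it was at 0.51 ± 0.12 (adjusted p = 0.0318), again the 1 member called, where 3.1% of all genes were called higher. Over the 28 alternatives the adjusted p of Rpl3 ran between 0.00289 and 0.825, and 6 of them called it. Of the 100-base windows of its principal transcript, 79.4% also occur in transcripts of other annotated genes, so its separate level is uncertain.

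Rpl36, a large-subunit protein, had the largest difference in the family on the log2(FPKM + 0.5) scale. Its level was 332 FPKM at the lowest, 410.3 at the median and 989 at the highest in Rspo2-AAV libraries, against 231, 270.3 and 492 in controls. Rspo2-AAV 2 stood far above the other Rspo2-AAV libraries, and control 1 lay above the remaining 5 Rspo2-AAV libraries. The difference was 0.61 ± 0.27 (log2, SE; limma adjusted p = 0.205). Rpl24, another large-subunit protein, came next by size of difference, with 0.585, 1.06 and 3.10 FPKM as lowest, median and highest in Rspo2-AAV libraries and 0.293, 0.709 and 1.01 in controls. Its difference was 0.55 ± 0.28 (limma adjusted p = 0.276), at a level far below that of its partners in the subunit. Rpl24 had only 4 to 49 reads a library. By limma-voom its difference was 0.82 ± 0.43, above the 0.61 ± 0.26 of Rpl36, so the order of these 2 depended on the scale. Rps18, a small-subunit protein at the contact with the large subunit, had 99.4, 135 and 317 FPKM in Rspo2-AAV libraries and 78.3, 95.5 and 182 FPKM in controls. The difference of Rps18 was 0.53 ± 0.28 (limma adjusted p = 0.306), and controls 1 to 3 overlapped with the Rspo2-AAV libraries. Rpl38, a large-subunit protein named after its values were seen, had 60.4, 81.1 and 194 FPKM in Rspo2-AAV libraries and 40.7, 58.6 and 122 FPKM in controls, a difference of 0.51 ± 0.30 (limma adjusted p = 0.352).

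Rpl5, Rpl11 and Rpl23 are large-subunit proteins that, when free of the ribosome, can bind Mdm2 and so stabilise p53. Rpl5 was at 75.6, 91.2, 90.2, 67.4, 70.6 and 62.7 FPKM in Rspo2-AAV 1, 2, 4, 5, 6 and 7, and at 82.3, 63.9, 60.3, 53.6, 58.1 and 48.9 FPKM in controls 1 to 6. Control 1 stood among the Rspo2-AAV libraries and control 2 above Rspo2-AAV 7, so the groups overlapped. The difference was 0.32 ± 0.14 (limma adjusted p = 0.211), and 91.1% of its 100-base windows are shared with other genes. Rpl11 differed by 0.32 ± 0.24 (adjusted p = 0.488), with 73.4, 85.7 and 179.5 FPKM as lowest, median and highest in Rspo2-AAV libraries and 60.7, 67.2 and 135 in controls. Rpl23 differed by 0.31 ± 0.23 (adjusted p = 0.480). Of 17 tested p53 target genes, 0 were called by limma and by limma-voom (1 higher and 2 lower at an unadjusted p under 0.05), with a median difference of 0.06. The highest of that list were Gdf15, a stress hormone, at 39.8 ± 33.0 FPKM in Rspo2-AAV and 12.2 ± 5.23 FPKM in control livers (SD, n = 6 each; limma adjusted p = 0.131), and Bax, a mediator of cell death, with a difference of 0.13 ± 0.22.

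Rps6, the small-subunit protein that S6 kinases phosphorylate downstream of mTOR, was at 224, 319, 239.7, 194, 214 and 176 FPKM in Rspo2-AAV 1, 2, 4, 5, 6 and 7. Controls 1 to 6 had 263, 180.5, 176, 141, 164 and 136 FPKM. Control 1 lay above all Rspo2-AAV libraries but number 2, and the other controls lay below all but number 7. Rps6 differed by 0.38 ± 0.18 (log2, SE; limma adjusted p = 0.252). Rpsa, the small-subunit protein also known as the laminin receptor, differed by 0.38 ± 0.24 (adjusted p = 0.398), with 140.1, 175 and 268 FPKM as lowest, median and highest in Rspo2-AAV libraries and 99.7, 120.0 and 273 in controls. Rps2, Rps3a1 and Rps15, small-subunit proteins among the most abundant messages of the family by FPKM, differed by 0.24 ± 0.19, 0.29 ± 0.19 and 0.38 ± 0.26.

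The stalk proteins Rplp0, Rplp1 and Rplp2 draw translation factors to the large subunit. Rplp1 had the highest level of all members, at 748, 1671, 1135, 762, 858 and 652 FPKM in Rspo2-AAV 1, 2, 4, 5, 6 and 7 and at 1739.7, 984, 666, 719, 671 and 634 FPKM in controls 1 to 6. Control 1 was the highest of the 12 and the groups overlapped widely. The difference was 0.13 ± 0.29 (limma adjusted p = 0.837). Rplp0 had 298, 339 and 438 FPKM as lowest, median and highest in Rspo2-AAV libraries and 230.5, 263 and 464 in controls, a difference of 0.32 ± 0.18 (adjusted p = 0.323). Rplp2 had 68.8, 82.8 and 117 FPKM in Rspo2-AAV libraries and 50.3, 58.9 and 123 in controls, a difference of 0.34 ± 0.21 (adjusted p = 0.380). Rpl41, the smallest ribosomal protein, had 152, 209 and 275 FPKM in Rspo2-AAV libraries and 77.9, 148 and 281 in controls, a difference of 0.48 ± 0.26 (adjusted p = 0.316).

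Several members have a paralog with a similar protein, and those known from muscle or testis were close to absent. Rpl3l, the heart and skeletal muscle form of Rpl3, was at 0.0800 to 0.326 FPKM in Rspo2-AAV libraries and 0 to 0.267 FPKM in controls. Rpl10l, best known from testis, had 0 reads in all 12 libraries. Rpl39l, also known from testis, had at most 0.0477 FPKM in Rspo2-AAV and 0.0848 FPKM in control libraries. These 3 were the members not tested. The coding sequence of Rpl3l is 73.3% identical to that of Rpl3, that of Rpl10l 84.8% to Rpl10 and that of Rpl39l 85.3% to Rpl39. The ubiquitous partners Rpl10 and Rpl39 differed by 0.21 ± 0.19 and 0.50 ± 0.26, and X-linked Rps4x by 0.20 ± 0.16, and none was called. Rps4l is annotated in the deposited table as a processed pseudogene and so is no member.

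Paralogs that the liver does express gave differing values within pairs. Rpl22 had 27.4, 35.5 and 55.0 FPKM as lowest, median and highest in Rspo2-AAV libraries and 29.5, 30.9 and 46.4 in controls, a difference of 0.13 ± 0.16 (limma adjusted p = 0.709). Rpl22l1, which rises in mice that lack Rpl22, had 7.06, 9.47 and 19.8 FPKM in Rspo2-AAV libraries and 6.11, 7.99 and 19.3 in controls, a difference of 0.30 ± 0.28 (adjusted p = 0.581). Rpl7 differed by 0.29 ± 0.18 (adjusted p = 0.401). Rpl7l1, a factor of ribosome assembly, differed by 0.04 ± 0.13 (adjusted p = 0.902) and Rspo2-AAV 2, at 19.0 FPKM, was the lowest of its group.

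Rps27 and Rps27l encode near-identical small-subunit proteins, and Rps27l is known as a p53 target. Their coding sequences (GRCm38, GENCODE M21, chromosomes 3 and 9) have 255 bases each and differ at 61, printed in capitals, which leaves 76.1% identity.
Rps27: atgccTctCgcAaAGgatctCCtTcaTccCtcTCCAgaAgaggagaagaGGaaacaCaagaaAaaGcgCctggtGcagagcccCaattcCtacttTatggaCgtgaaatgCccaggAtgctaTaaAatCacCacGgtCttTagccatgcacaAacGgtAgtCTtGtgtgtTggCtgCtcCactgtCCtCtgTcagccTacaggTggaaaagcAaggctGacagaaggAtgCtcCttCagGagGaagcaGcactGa
Rps27l: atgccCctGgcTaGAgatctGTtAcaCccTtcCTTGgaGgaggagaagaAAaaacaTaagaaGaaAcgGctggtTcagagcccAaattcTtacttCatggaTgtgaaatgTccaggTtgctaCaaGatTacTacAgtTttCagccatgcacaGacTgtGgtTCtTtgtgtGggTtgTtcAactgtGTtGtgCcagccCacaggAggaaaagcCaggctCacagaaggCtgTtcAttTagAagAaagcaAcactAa
Rps27 was at 29.2, 55.2, 69.5, 45.4, 19.6 and 15.7 FPKM in Rspo2-AAV 1, 2, 4, 5, 6 and 7 and at 109, 71.1, 38.7, 31.9, 15.8 and 14.5 FPKM in controls 1 to 6. It had the widest spread of the family, and its difference of -0.08 ± 0.51 (limma adjusted p = 0.949) turned sign between alternatives, from -0.73 to 0.68. Of its 100-base windows, 98.4% also occur in other annotated genes, against 0% for Rps27l. Rps27l was at 98.9, 112 and 240 FPKM as lowest, median and highest in Rspo2-AAV libraries and at 99.3, 109 and 214 in controls, a difference of 0.02 ± 0.24 (adjusted p = 0.974).

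**Figure D4:**
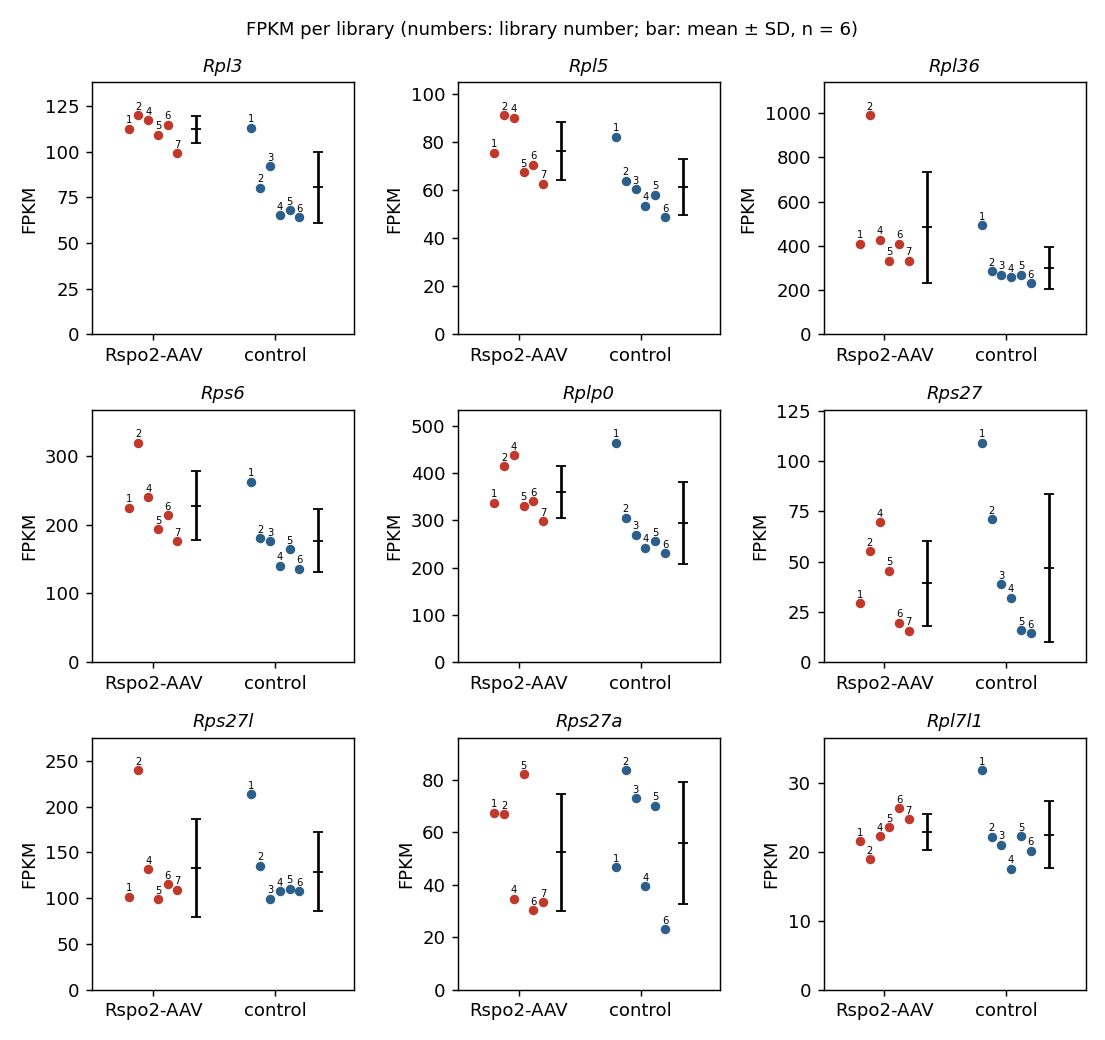
FPKM of 9 ribosomal protein genes in each library, with the library number beside each point and the mean ± SD of each group (n = 6) as a bar. Rpl3 Rspo2-AAV points sit at 99.1 to 119.9 with control 1 beside them at 113, Rpl36 has its outlying point at 989, and Rps27 spreads over both groups.

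The other members with a negative difference were Rps27a, whose protein is made as a fusion with ubiquitin, and Rpl13a, which in human cells also leaves the ribosome to silence some messages after interferon gamma. Rps27a had 30.4, 50.7 and 82.2 FPKM as lowest, median and highest in Rspo2-AAV libraries and 23.0, 58.4 and 83.6 in controls, a difference of -0.08 ± 0.34 (limma adjusted p = 0.924). Rpl13a had 3.83, 5.67 and 9.02 FPKM in Rspo2-AAV libraries and 4.05, 5.74 and 9.81 in controls, a difference of -0.08 ± 0.21 (adjusted p = 0.868). Both sets of values overlapped almost whole.

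Levels differed widely between members although a ribosome holds its proteins in nearly equal numbers. Per deposited gene length, Rplp1, Rpl36, Rps2, Rps3a1 and Rps15 had the highest mean FPKM, and Rpl22l1, Rpl21, Rpl13a, Rps10 and Rpl24 the lowest of the tested. Rpl21 had 4.09 to 14.1 FPKM in Rspo2-AAV and 3.85 to 13.8 FPKM in control libraries, a difference of 0.45 ± 0.33 (limma adjusted p = 0.464). Rps10 had 0.839 to 1.94 FPKM in Rspo2-AAV and 0.884 to 1.60 FPKM in control libraries, a difference of 0.16 ± 0.16 (adjusted p = 0.615). The deposited lengths cover more than 1 transcript for many members, and per kilobase of the principal transcript the order began with Rplp1 (971 in Rspo2-AAV and 902 in control livers), Rps2 (743 and 643) and Rpl10 (727 and 634) and still ended with Rpl24 (2.01 and 1.02). Shared windows touched these low members too, with 36.8% for Rpl21, 55.2% for Rpl13a, 47.7% for Rps10 and 80.1% for Rpl24. How reads that match several places were counted is not given in the sources used here, so the levels of such members are uncertain. The 13 members with under 10% shared windows all had positive differences, with a median of 0.27. Members with the start motif shown above had a median of 0.34 (12 of 13 positive), tested members with an entry and no motif 0.32 (46 of 47) and those without an entry 0.37 (19 of 20).

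Among libraries numbered 4 to 7 alone, part of the family passed the test, with higher levels in Rspo2-AAV livers. In this set of 4 Rspo2-AAV and 3 control libraries, drawn from the data and not from a batch in the labels, limma called 18 of 80 members higher and 0 lower, where 6.34% of all tested genes were called higher and 6.92% lower. All 80 differences were positive, with a median of 0.40 against 0.015 for all genes, and in 56 of 80 members every Rspo2-AAV library lay above every control, where 14.6% of all genes did. The members' median deviations were 0.26, -0.11, 0.02 and -0.23 in Rspo2-AAV 4, 5, 6 and 7, and -0.38, -0.33 and -0.55 in controls 4, 5 and 6. Members do not vary independently here either, so these counts of members describe these libraries. Rpl3 rose by 0.74 ± 0.08 (log2, SE; limma adjusted p = 0.00289), with 117, 109, 115 and 99.1 FPKM in Rspo2-AAV 4, 5, 6 and 7 against 65.3, 67.9 and 64.0 FPKM in controls 4, 5 and 6. Rpl36 rose by 0.56 ± 0.12 (adjusted p = 0.0261), Rplp2 by 0.52 ± 0.11 (0.0255), Rps18 by 0.57 ± 0.13 (0.0304), Rpsa by 0.52 ± 0.13 (0.0374), Rplp0 by 0.52 ± 0.13 (0.0435), Rps6 by 0.48 ± 0.12 (0.0448) and Rpl11 by 0.34 ± 0.09 (0.0456). The other 10 had differences of 0.46 to 0.62 and included Rpl27, Rpl8, Rpl13, Rpl36a, Rpl38, Rps16, Rps26 and Rps28, named after their values were seen. This set holds the libraries with the most acinar reads, Rspo2-AAV 4 and 5, whose part was not tested, and holds neither Rspo2-AAV 2 nor control 1.

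Among libraries numbered 1 to 3, with 2 Rspo2-AAV and 3 control libraries, limma called 0 members, where 0% of all genes were called higher, and the members' median difference was 0.43. Rpl14 and Rpl24 were higher at an unadjusted p under 0.05 there (limma), where 540 of 13447 tested genes were higher and 415 lower. The difference in effect between the number sets was itself tested: 0 of 80 members were called by limma's interaction term, where 0.245% of all genes were. The smallest adjusted p of a member was 0.413. At an unadjusted p under 0.05 that term had 1 of 80 members and 1546 of 13447 tested genes. With a term for the number set in the model of all 12 libraries, 3 members were called higher, Rpl3, Rpl14 and Rps28, where 3.09% of all genes were. Rpl14 was at 153, 219, 118, 96.6, 117 and 89.0 FPKM in Rspo2-AAV 1, 2, 4, 5, 6 and 7, against 132, 96.9, 80.3, 75.5, 83.0 and 71.7 FPKM in controls 1 to 6, and its difference in that model was 0.61 ± 0.16 (adjusted p = 0.039). Without Rspo2-AAV 2 and control 1, 5 members were called higher, Rpl3, Rpl36, Rpl8, Rpl27 and Rplp2, where 4.13% of all genes were. Their adjusted p ran between 0.0121 and 0.0494.

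**Figure D5:**
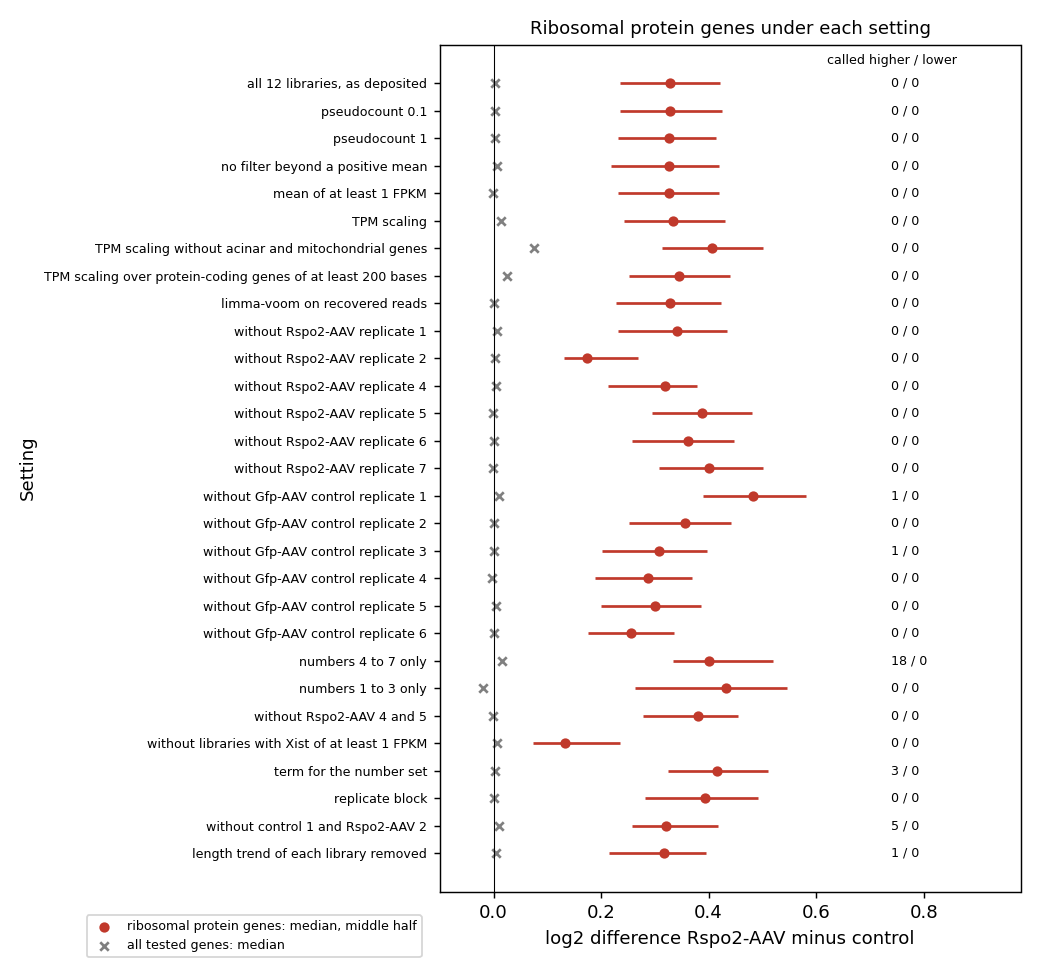
Median (points) and interquartile range (bars) of the log2 differences, Rspo2-AAV minus control, of the tested ribosomal protein genes under each setting, with the median of all tested genes (crosses) and the members called higher and lower at right. The ribosomal protein medians run between 0.13 and 0.48, and 18 members are called among numbers 4 to 7 only.

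Ribosomal proteins outside the name rule did not pass the test either. Of 4 such genes, Fau, Rpl36al and Rack1 among them, 0 were called by limma or limma-voom, with a median difference of 0.24. Fau, whose product is split into a ubiquitin-like protein and a small-subunit protein, was at 351 ± 111 FPKM in Rspo2-AAV and 251 ± 59.3 FPKM in control livers (SD, n = 6 each), a difference of 0.46 ± 0.20 (limma adjusted p = 0.193, unadjusted p under 0.05). Rack1, a scaffold on the small subunit, differed by 0.25 ± 0.17. Translation factors and other genes with TOP messages gave 0 of 22 called by limma or limma-voom (1 higher and 1 lower at an unadjusted p under 0.05) and a median of 0.14. Eef1a1, which brings transfer RNA to the ribosome, was at 1647 ± 157 FPKM in Rspo2-AAV and 1637 ± 45.0 FPKM in control livers (SD, n = 6 each), a difference of 0.00 ± 0.12, and Eef2, the translocation factor, differed by 0.18 ± 0.12.

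Among 46 ribosome biogenesis genes, 2 rose and 0 fell, where 2.55% of all tested genes were called higher and 2.65% lower, and the median difference was 0.20. At an unadjusted p under 0.05, 12 of the 46 were higher and 0 lower, where 10.3% and 11.2% of all genes were. Mycn, a Myc-family transcription factor that drives ribosome production, was at 3.03 ± 0.704 FPKM in Rspo2-AAV and 0.479 ± 0.273 FPKM in control livers (SD, n = 6 each), a rise of 1.87 ± 0.19 (log2, SE; limma adjusted p = 0.000521). Nop14, a nucleolar factor of small-subunit assembly, was at 8.65 ± 1.22 FPKM in Rspo2-AAV and 6.37 ± 0.612 FPKM in control livers, a rise of 0.41 ± 0.11 (adjusted p = 0.0465). Limma-voom called 1 of the 46. Myc differed by 0.40 ± 0.44 (adjusted p = 0.652). Of 20 regulators of ribosomal protein synthesis, limma called 1 lower and 0 higher, and limma-voom called 1 lower. At an unadjusted p under 0.05 (limma), 2 were higher and 2 lower, where 10.3% and 11.2% of all genes were. The median of that list was 0.01. The gene called by limma was Deptor, an inhibitor of mTOR, at 13.6 ± 2.40 FPKM in Rspo2-AAV and 20.9 ± 3.86 FPKM in control livers. It fell by 0.61 on the log2 scale (limma adjusted p = 0.0346). Of the mitochondrial ribosome, 0 of 48 large-subunit genes (median 0.06, 0 at an unadjusted p under 0.05) and 0 of 31 small-subunit genes (median 0.02, 2 at an unadjusted p under 0.05, both higher) were called by limma or limma-voom. Its most abundant members were Mrpl34, Mrpl14, Mrps7 and Mrps21, with differences of 0.17 ± 0.22, 0.07 ± 0.25, 0.02 ± 0.20 and -0.13 ± 0.23.

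Markers of cell types moved beside these values, and their part in the results was not tested. Of all tested genes, limma called 2.55% higher and 2.65% lower. At an unadjusted p under 0.05, 10.3% of all tested genes were higher and 11.2% lower. Limma-voom called 322 of 13447 tested genes higher and 346 lower. Of 6 erythroid markers, Hba-a1, Hba-a2, Hbb-bs and Hbb-bt rose and 0 fell, with a summed level of 229 to 1363 FPKM in Rspo2-AAV and 97.5 to 354 FPKM in control livers; the globin copies share reads. Of 11 Kupffer cell markers, Marco, Clec4f and Vsig4 fell and 0 rose, with 569 to 1070.1 FPKM summed in Rspo2-AAV and 794 to 1721 FPKM in control livers. At an unadjusted p under 0.05 (limma), 10 of the 11 were lower and 0 higher, where 11.2% of all tested genes were lower. Limma-voom called 4 of the 11 lower. Of 8 stellate cell markers, Dcn and Lrat fell and 0 rose, with 21.9 to 37.5 FPKM summed in Rspo2-AAV and 45.3 to 64.0 FPKM in control livers. All 8 were lower at an unadjusted p under 0.05 (limma), and limma-voom called 3 of them lower. Of 9 tested lymphocyte markers, limma called Gzma lower and 0 higher, limma-voom called 0, and at an unadjusted p under 0.05 4 were higher and 1 lower. The median of that list was 0.22, with a summed 16.3 to 163 FPKM in Rspo2-AAV and 15.9 to 30.2 FPKM in control livers. Acinar markers had 0 of 22 called by limma or limma-voom (20 higher at an unadjusted p under 0.05), a summed 4.64 to 67690.4 FPKM in Rspo2-AAV livers and 4.72 to 16.3 FPKM in controls, where 6 of the 23 listed were at 0. Hepatocyte, endothelial and cholangiocyte markers had 0 of 9, 0 of 8 and 0 of 4 called by limma or limma-voom, with 2, 1 and 1 lower and 0 higher at an unadjusted p under 0.05. Their median differences were -0.22, -0.08 and 0.32.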

How the data were processed

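The submitters' processing notes name DESeq2 1.20.0, featureCounts 1.5.0-p3, HISAT2 2.0.5 and the GRCm38 (mm10) build. Their roles, the strand setting and the handling of multi-mapped reads are not given in the sources used here. The authors deposited FPKM per gene and library. Multiplying by gene length gave whole reads within 0.01 reads for 100% of values. Limma 3.58.1 in R 4.3.3 (trend) was run on log2(FPKM + 0.5), a scale that understates changes of low genes, over the genes averaging 0.5 FPKM or more, and every adjusted p is Benjamini-Hochberg over all tested genes. Limma-voom on recovered reads took the place of count models. In simulated data of this design with 13447 genes, 76 of 100 genes changed 2-fold were recovered. A 2-fold change is larger than that of any member (largest log2 difference 0.61), so this does not give the recovery of changes of the members' size. Members and gene lists (other ribosomal, TOP, biogenesis, regulator, p53, mitochondrial ribosome and cell marker genes) were chosen with earlier results of these data known. Named by rule were called members, the 5 highest and 5 lowest by FPKM, the 3 largest differences each way, and fixed paralogs, Mdm2 binders and stalk genes; in other lists, up to 4 called genes or the 2 highest. Shared windows came from GENCODE M21 transcripts, aligned pairs from Biopython 1.88. Reads carry no molecular identifiers. Some single members are not reported here.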

Additional observations from a re-analysis of the deposited data

Results flagged for a closer look

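In 12 of 64 tested sets of 6 values (29 named genes and summary levels, each in both groups), 1 library lay apart from the others, its gap to the nearest, as a share of the range of the group, being over Dixon's critical value; by chance about 1 in 20 sets would be so marked. All 12 named the highest library, Rspo2-AAV 2 in 5 and control 1 in 7. The gap as a share of the range was 0.771 for Rpl36, 0.667 for Rps15, 0.677 for Rps27l, 0.74 for Rpl11 and 0.636 for the summed level of all members in the Rspo2-AAV group. In the control group it was 0.719 for Rpl36, 0.658 for Rps2, 0.724 for Rpl22l1, 0.66 for Rpl21, 0.666 for Rpl10, 0.683 for Rpl11 and 0.663 for the summed level of all members. On the deposited scale, the summed level was 17467 FPKM in Rspo2-AAV 2 and 8031 to 11467 FPKM in the other Rspo2-AAV libraries. It was 14329 FPKM in control 1 and 6485 to 9127 FPKM in the other controls. The gaps depended on the scale. As a share of the FPKM of protein-coding genes of at least 200 bases, Rspo2-AAV 2 had 3.34% and Rspo2-AAV 1 had 3.15%. Control 1 had 3.16% and the other controls 1.82% to 2.49%. The genes share the same libraries, so the marks are not independent of one another.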

How the results depend on the processing

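The members' counts were 0 higher and 0 lower by limma with all 12 libraries, and became 18 among numbers 4 to 7, 5 without control 1 and Rspo2-AAV 2, 3 with a term for the number set and 1 with the length trend removed, all higher. Leaving out 1 library at a time gave 0 to 1 higher and 0 lower, and moved the members' median from 0.17 to 0.48. All tested genes, 343 higher and 356 lower with all libraries, gave 162 to 421 higher and 170 to 492 lower in the same way. They gave 195 and 216 without a filter, 200 and 191 with TPM scaling, 175 lower with TPM scaling without acinar and mitochondrial genes, 229 lower with TPM over protein-coding genes, 853 and 931 among numbers 4 to 7, 117 and 120.0 without Rspo2-AAV 4 and 5, 807 and 908 without libraries with Xist, and 556 and 618 without control 1 and Rspo2-AAV 2. Among numbers 1 to 3 they gave 0 and 0 (limma; 540 and 415 at an unadjusted p under 0.05). The cause of these moves was not tested, though numbers 1 to 3 hold only 5 libraries. The 3 TPM scalings left 0 members called, with 22 to 46 at an unadjusted p under 0.05. The 29 named members that were tested had 811 values under alternatives. Of these, 15 passed the threshold that the main value missed and 0 were called with the other sign. Removal of control 1 with Rspo2-AAV 2, of the length trend and the protein-coding TPM were chosen after seeing the data. With a replicate block for shared numbers, 145 genes were called higher and 153 lower and 0 members; same-numbered libraries deviated with correlations of -0.25, 0.053, 0.083, 0.088 and 0.16 (numbers 1, 2, 4, 5 and 6), so the numbers were not taken to pair samples. Library medians of the members spread by 0.41 (log2, pooled SD within groups), more than the members' median difference of 0.33, and this limits what 6 libraries a group can show.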
